A study of Homo sapiens with 6 samples.

Results

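The 48 genes described here drive human cells from G1 into S phase and copy the DNA. They were taken by symbol from a table of 18806 genes, and all 48 had a row. They were grouped by role as cyclins, kinase regulators and E2F factors (12 genes), origin licensing (6), the replicative helicase (12), the sliding clamp and its loader (6), polymerases and strand processing (10) and ribonucleotide reductase (2). The libraries were poly(A) RNA sequencing of Mono-Mac-6, a monocytic acute myeloid leukaemia line that carries the MLL-AF9 fusion gene. All 6 came from a single Cas9 clone that had been transduced with lentivirus and selected with 10 µg/ml of blasticidin and 200 µg/ml of hygromycin B, with harvest about 8 to 10 days later. The groups, 2 libraries each, differed in the guide RNA: the control guide sgNS, sgMETTL1.3 or sgMETTL1.6. Both METTL1 guides target METTL1, the catalytic subunit of the tRNA N7-methylguanosine enzyme. Because everything derives from 1 clone, the results describe that clone, and the labels do not say whether replicates were separate cultures, so each p-value reflects no more than the scatter among these libraries, which may be technical. The names of the value columns also carry the letters EV, whose meaning is not given in the sources used here.

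A cell commits to S phase when D-type and E-type cyclins with their kinases phosphorylate RB1, which frees the activating E2F factors to switch on replication genes. In G1 the origin recognition complex, CDC6 and CDT1 load the MCM helicase onto DNA, and geminin blocks CDT1 so that each origin is used only once. CDC45 and GINS then complete the helicase, the primase makes RNA primers, the clamp loader RFC places the PCNA ring, and the polymerases extend and join the strands. Fast dividing leukaemia cells normally hold high levels of these transcripts.

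Many of these genes carry E2F sites close to their start, so the promoters were searched for the E2F words TTTGGCGC, TTTCCCGC, TTTCGCGC and TTTGCCGC on both strands. The window was 300 bases, 250 before and 50 after the first listed start of each gene in RefSeq (GRCh38.p14), and matches may overlap. A promoter was matched for 38 of the 48 genes, and 19 of them (50.0%) held at least 1 word. Of all 27305 RefSeq promoters searched, whether or not the gene was tested here, 908 did (3.33%). The word was present in 4 of the 9 matched genes that were higher with the METTL1 guides, in 7 of the 15 that were lower and in 8 of the 14 that did not pass the test described below. 3 of these windows are shown from their 250 upstream bases, 5′ to 3′ on the gene's strand with the matched words in capitals, because MCM6 and E2F2 fell and GINS1 rose. They are chr2:135876444-135876693 on the minus strand for MCM6, chr1:23531234-23531483 on the minus strand for E2F2 and chr20:25407423-25407672 on the plus strand for GINS1.
MCM6: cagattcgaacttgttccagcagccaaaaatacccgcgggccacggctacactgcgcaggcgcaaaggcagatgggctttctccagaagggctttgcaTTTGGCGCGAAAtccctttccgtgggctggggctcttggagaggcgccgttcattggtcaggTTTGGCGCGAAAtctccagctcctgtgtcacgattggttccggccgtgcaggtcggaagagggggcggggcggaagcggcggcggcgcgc
E2F2: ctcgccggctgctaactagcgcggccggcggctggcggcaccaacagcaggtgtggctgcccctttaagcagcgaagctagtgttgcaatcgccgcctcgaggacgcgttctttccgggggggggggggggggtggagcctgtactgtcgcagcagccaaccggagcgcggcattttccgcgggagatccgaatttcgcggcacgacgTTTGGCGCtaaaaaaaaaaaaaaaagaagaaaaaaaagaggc
GINS1: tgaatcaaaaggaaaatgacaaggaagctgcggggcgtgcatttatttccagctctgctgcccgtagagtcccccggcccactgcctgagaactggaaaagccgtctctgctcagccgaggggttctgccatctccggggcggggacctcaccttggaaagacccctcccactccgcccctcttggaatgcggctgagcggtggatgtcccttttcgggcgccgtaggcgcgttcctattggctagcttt
MCM6 had 4 matches in 2 blocks in which words of opposite strands overlap, and E2F2 had 1. GINS1 had 0 wholly within the upstream bases, and its 1 match ended in the 50 bases after the start. In the 300 bases, CDT1, which fell, and POLA2, which rose, had 1 match each, and PRIM1, which fell, had 0. A match describes letters in a window and was not tested for binding.

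Levels are given in TPM, the length-scaled share of all transcripts in a library, a value per transcript length that can be compared between genes. Differences are on the log2(TPM + 1) scale, with the standard error (SE) from limma fitted to the 10911 genes averaging 1 TPM or more, and a gene was called at an adjusted p under 0.05 over all of them. Read depth cannot be recovered from TPM, so it is unknown here and values carry no counting interval. METTL1 mRNA stood at 15.38 and 13.89 TPM in the sgNS libraries, 18.29 and 16.56 TPM with the label sgMETTL1.3 (limma log2 0.24, adjusted p = 0.011) and 11.15 and 11.69 TPM with the label sgMETTL1.6 (log2 -0.33, adjusted p = 0.0017). The target transcript was thus higher, not lower, in the libraries labelled sgMETTL1.3, and directions below follow the labels. Gene-level TPM does not read small insertions or deletions. Of the markers of monocytic leukaemia, CD14 and CSF1R stayed under 1 TPM in every library, while LYZ (9205.50 to 11419.34 TPM), CD33, CD68 and FLT3 were present. Of the 10 markers of that list that were tested, 8 were lower over both guides, among them ITGAX (log2 -1.19), FCGR1A (-0.84), ITGAM (-0.64), FLT3 (-0.40) and CD68 (-0.37). SPI1 was higher (log2 0.20) and CD33 did not pass. The summed level of that list of 12 was 13449.08 and 13993.22 TPM in the controls and 11277.39 to 12904.62 TPM in the guide libraries, most of it LYZ, and the part of these markers in the results below was not tested. The 4 T cell markers in the table were at 0 TPM throughout, and the summed fibroblast, B cell and erythroid lists stayed under 3 TPM, with HBA1 at 0 to 1.34 TPM in the controls and 1.62 to 2.67 TPM in the guide libraries. The epithelial list, summing to 12.84 to 17.05 TPM, was carried by KRT18 (lower over both guides, log2 -0.38), with EPCAM and CDH1 at or near 0.

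Most replication genes kept close to their control level. Of the 46 tested, 10 were higher and 16 were lower with the METTL1 guides together, and 20 did not pass. That is 56.5% called, next to 59.4% of all 10911 genes (32.6% higher and 26.8% lower). The median log2 change was -0.03 over the tested replication genes and 0.02 over all tested genes. Changes were small: the median absolute log2 change was 0.12, next to 0.16 over all genes, 5 of the 46 (10.9%) changed by at least 0.3 next to 24.3% of all genes, and 2 (4.35%) by at least 0.5 next to 8.40%. These 5 were CDT1, PRIM1, MCM6 and E2F2, which fell, and POLA2, which rose. The replication genes and all genes were not matched for level, and the part of level in these shares was not tested. All 4 guide libraries lay outside the range of both controls for 31 of the 46 genes, 11 above and 20 below, next to 60.2% of all genes (32.9% above and 27.3% below). With sgNS replicate 2 left out, 8 were higher and 11 lower, while the called share of all genes was 49.1% (3008 higher and 2336 lower).

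Each guide gave a similar split on its own. The libraries labelled sgMETTL1.3 had 11 genes higher and 16 lower than control (58.5% of all genes called, 34.3% higher and 24.2% lower) and those labelled sgMETTL1.6 had 8 higher and 16 lower (51.0% of all genes called, 25.7% higher and 25.3% lower). Both comparisons share the control libraries. Without sgNS replicate 2 the lower genes numbered 9 with each guide, while over all genes 2238 were lower with sgMETTL1.3 (50.9% called) and 2119 with sgMETTL1.6 (41.3% called). Without sgMETTL1.3 replicate 2 the lower genes numbered 10 with that guide, while 2184 of all genes were lower (49.7% called). With median-ratio scaling the split with sgMETTL1.3 was 8 higher and 20 lower, and 3080 and 3182 over all genes. The summed level of all 48 genes was 4427.04 and 4486.39 TPM in the control libraries, 4407.49 and 4352.87 TPM in those labelled sgMETTL1.3 and 4272.84 and 4252.59 TPM with sgMETTL1.6. In bulk RNA, fewer cells in S phase and less RNA per cell cannot be told apart.

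**Figure D1:**
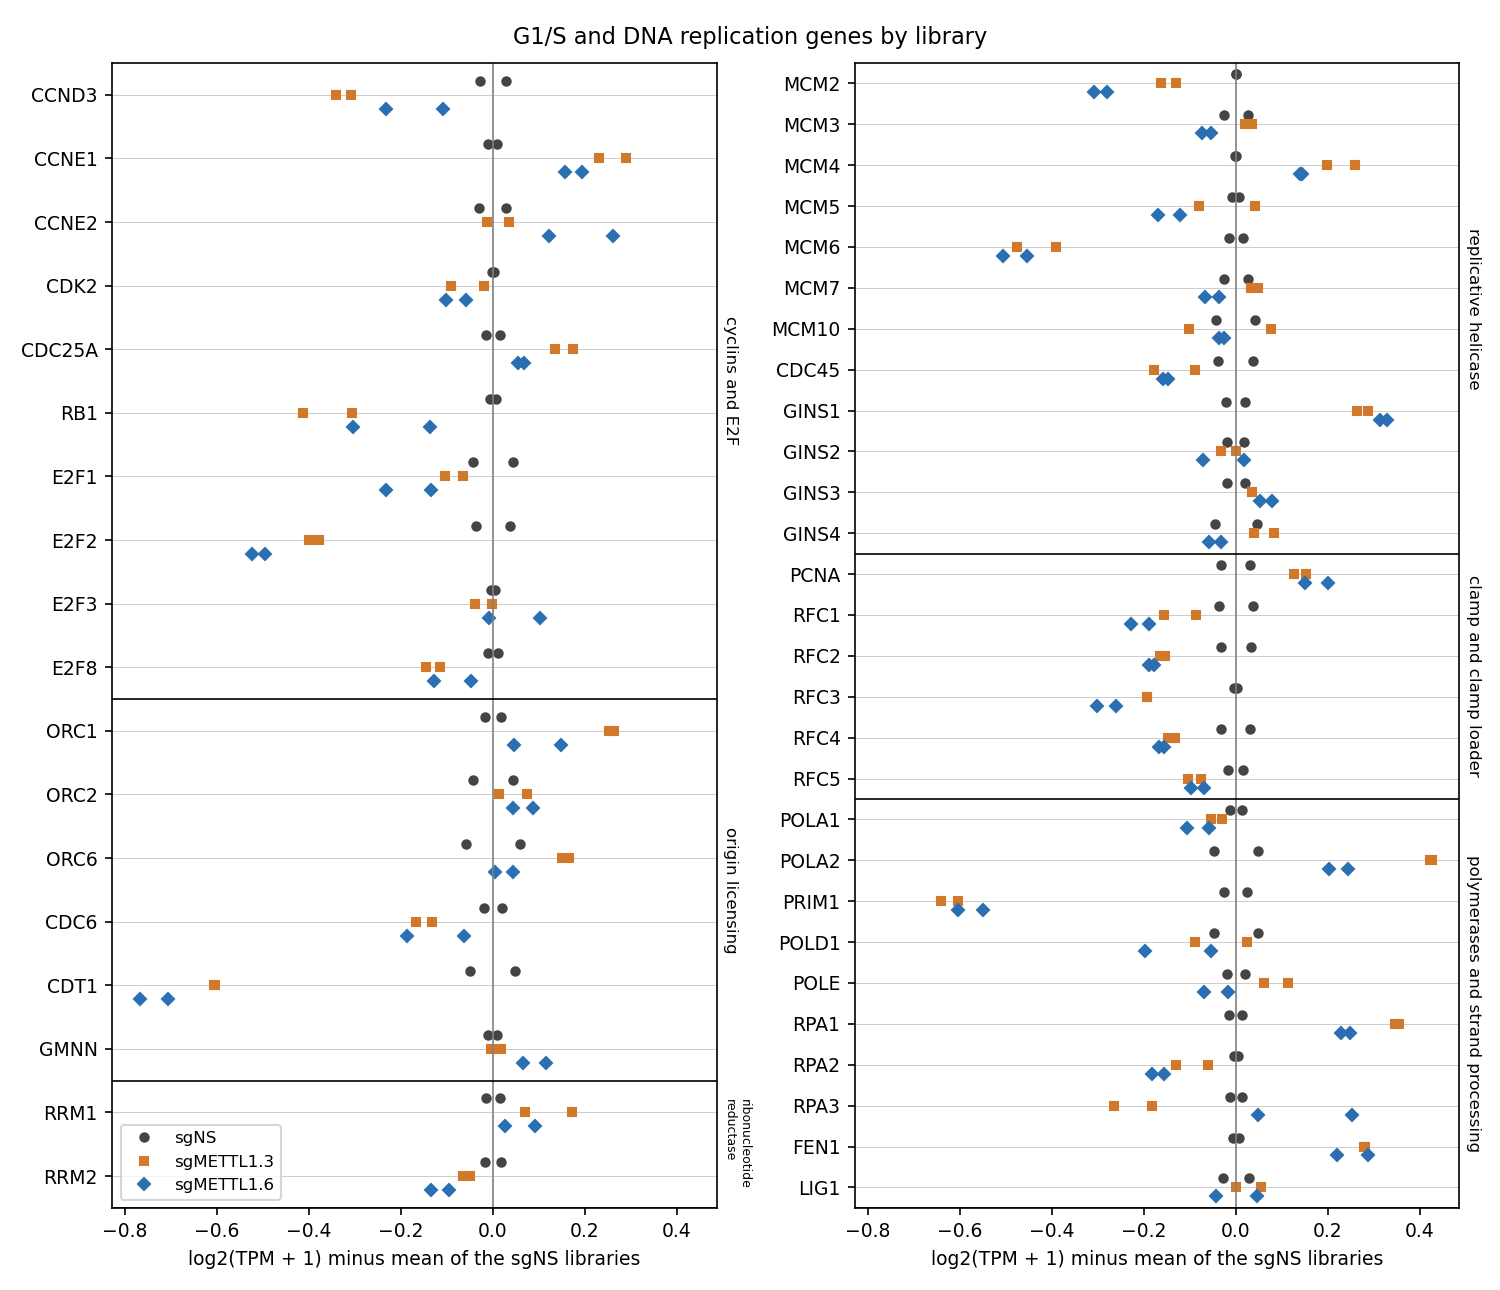
Change of each of the 46 tested replication genes in each of the 6 libraries, as log2(TPM + 1) minus the mean of the sgNS libraries (x axis), with genes grouped by role (y axis). Each point is 1 library. CDT1, PRIM1, MCM6 and E2F2 lie farthest to the left and POLA2 to the right, while most genes lie within 0.3 of the controls.

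**Figure D2:**
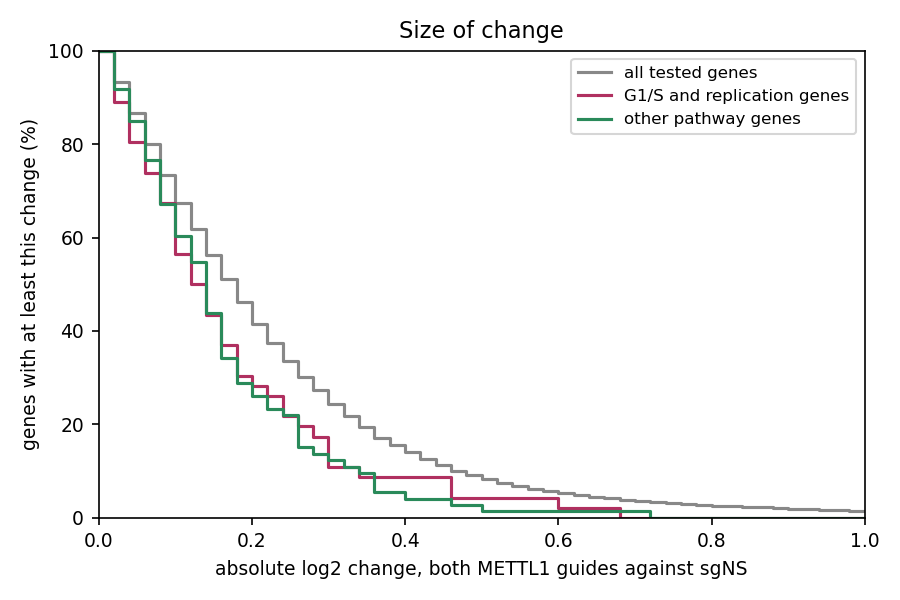
Percentage of genes (y axis) whose absolute log2 change with both METTL1 guides reached at least the value on the x axis, for all 10911 tested genes, the 46 tested replication genes and 73 other genes of the pathway. At 0.3 the replication genes stand at 10.9%, the other pathway genes at 12.3% and all genes at 24.3%.

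Among the cyclins, CCND3 carried the D-type signal. It stood at 134.31 and 139.86 TPM in the controls, 107.92 and 110.50 TPM in the libraries labelled sgMETTL1.3 and 116.51 and 127.13 TPM in those labelled sgMETTL1.6. All guide libraries were below both controls, and the log2 change was -0.25 ± 0.039 (SE; limma, adjusted p = 0.00013). CCND1 (0.03 to 0.11 TPM) and CCND2 (0.02 to 0.15 TPM) were near 0 in every library and were not tested. CCNE1, the E-type cyclin that activates CDK2, was higher, at 30.09 and 30.51 TPM in the controls and 33.92 to 37.25 TPM in the guide libraries (log2 0.22, adjusted p = 0.00064). Its relative CCNE2 (46.50 to 57.10 TPM) did not pass over both guides (log2 0.10, adjusted p = 0.071). CCNE2 was higher with sgMETTL1.6 alone (limma log2 0.19, adjusted p = 0.0086). CDK2 itself ranged from 64.12 to 69.00 TPM, with a log2 difference of -0.07 (adjusted p = 0.14). The phosphatase CDC25A, which removes inhibitory phosphates from CDK2, was slightly higher over both guides (34.74 to 39.77 TPM, log2 0.11, adjusted p = 0.036). With sgMETTL1.6 alone CDC25A did not pass (limma log2 0.06, adjusted p = 0.3). The CDC25A call did not hold without either control (adjusted p = 0.2 and 0.088), without sgMETTL1.3 replicate 2 (0.094), without sgMETTL1.6 replicate 1 (0.058) or with median-ratio scaling (0.084).

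Of the E2F factors, E2F2 changed most in this role group. This activating E2F stood at 16.41 and 17.31 TPM in the controls, 12.54 and 12.73 TPM in the libraries labelled sgMETTL1.3 and 11.41 and 11.67 TPM with the label sgMETTL1.6. The guide libraries did not overlap the controls, and E2F2 fell by 0.45 on the log2 scale (SE 0.053, adjusted p = 9.9e-06). E2F1, also an activator, did not pass with sgMETTL1.3 alone (limma, adjusted p = 0.18). Over both guides it was lower by a smaller step, from 42.5 ± 1.85 to 40.0 ± 0.764 and 37.3 ± 1.82 TPM (SD, n = 2, and limma adjusted p = 0.021). Its adjusted p was 0.23 without sgNS replicate 2, 0.055 without sgMETTL1.3 replicate 2, 0.05 without sgMETTL1.6 replicate 1 and 0.056 with no filter on low values. E2F3, the other activator, did not pass over both guides (65.44 to 72.21 TPM, log2 0.01). Nor did E2F8, a repressor without a transactivation domain (25.39 to 28.42 TPM, log2 -0.11, adjusted p = 0.054). E2F8 was lower with sgMETTL1.3 alone (limma log2 -0.13, adjusted p = 0.048). RB1, the pocket protein that holds activating E2Fs in check, was low in all libraries and lower with the guides. It stood at 5.51 and 5.45 TPM in the controls and at 4.24 and 3.87 TPM in the libraries labelled sgMETTL1.3. Those labelled sgMETTL1.6 had 4.89 and 4.25 TPM (log2 -0.29 over both guides, adjusted p = 0.0054). With sgMETTL1.6 alone RB1 did not pass (limma log2 -0.22, adjusted p = 0.052).

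In origin licensing the loading factor CDT1 fell while its inhibitor geminin did not pass the test. CDT1 (chromosome 16, 88803213 to 88809258, plus strand, GENCODE 29 on GRCh38) stood at 54.70 and 58.61 TPM in the controls, 36.91 and 36.83 TPM in the libraries labelled sgMETTL1.3 and 32.83 and 34.29 TPM in those labelled sgMETTL1.6. Every guide library was well below both controls, and the log2 change of -0.67 ± 0.043 (SE, adjusted p = 3.8e-08) was the deepest of the 46 genes. GMNN, which encodes geminin, ranged from 144.82 to 158.11 TPM (log2 0.05, adjusted p = 0.20). The level of CDT1 relative to GMNN was 0.378 and 0.399 in the controls, 0.250 and 0.253 in the libraries labelled sgMETTL1.3 and 0.208 and 0.225 in those labelled sgMETTL1.6. This ratio within a library does not depend on how libraries were scaled, and its guide values lay below both controls.

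The other licensing genes moved less. CDC6, the ATPase that works with CDT1 to load the helicase, fell from 75.08 and 77.19 TPM in the controls to between 66.81 and 72.87 TPM in the guide libraries (log2 -0.14, adjusted p = 0.012), and did not pass without sgNS replicate 2 (adjusted p = 0.11). ORC1, the largest subunit of the origin recognition complex, rose over both guides (log2 0.18, adjusted p = 0.0031). It stood at 38.38 and 37.42 TPM in the controls and at 45.31 and 45.66 TPM in the libraries labelled sgMETTL1.3. Those labelled sgMETTL1.6 had 39.16 and 42.13 TPM, and with that guide alone ORC1 did not pass (limma log2 0.10, adjusted p = 0.12). ORC2 (log2 0.05) and ORC6 (log2 0.09, adjusted p = 0.09) did not pass over both guides. ORC6 was higher with sgMETTL1.3 alone (limma log2 0.16, adjusted p = 0.017). Over both guides the role group thus had 1 gene higher, 2 lower and 3 not passed, a called share of 50% next to 59.4% of all genes.

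**Figure D3:**
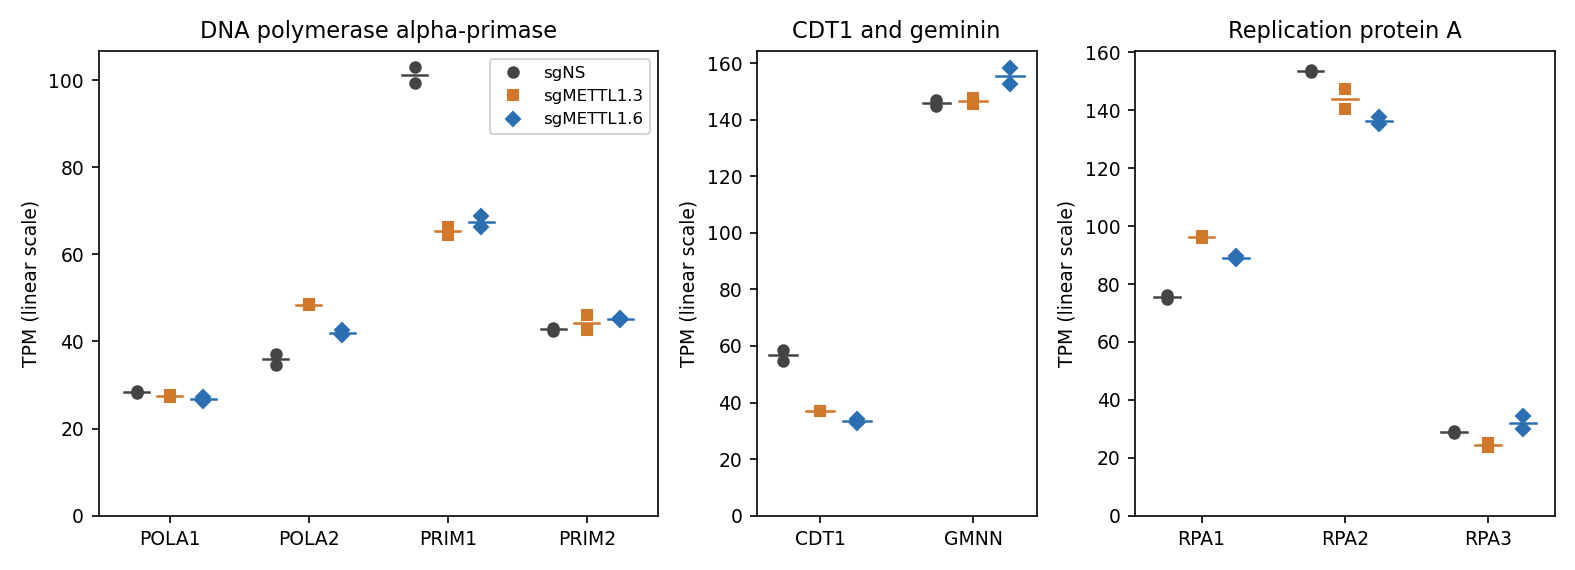
TPM on a linear scale in each library (points) with the group mean (bars, n = 2) for the subunits of DNA polymerase alpha-primase, for CDT1 and geminin (GMNN), and for replication protein A. PRIM1 falls from about the 100 TPM line to 64.50 to 68.76 TPM while POLA2 rises, CDT1 falls with GMNN between 144.82 and 158.11 TPM, and RPA1 rises while RPA2 falls.

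The 6 subunits of the MCM2-7 helicase ring, which are used in equal numbers, did not move together. MCM6 (chromosome 2, 135839626 to 135876426, minus strand) stood at 328.80 and 335.94 TPM in the controls, 253.13 and 238.79 TPM in the libraries labelled sgMETTL1.3 and 242.46 and 233.75 TPM in those labelled sgMETTL1.6. It fell below both controls in every guide library (log2 -0.46 ± 0.032, SE, adjusted p = 8.4e-08). MCM2 fell from 260.64 and 260.52 TPM to 232.73 and 238.06 TPM in the libraries labelled sgMETTL1.3 and 210.19 and 214.29 TPM in those labelled sgMETTL1.6 (log2 -0.22, adjusted p = 2.2e-05). MCM4 went the other way, from 195.84 and 195.50 TPM to 234.30 and 224.83 TPM and to 215.69 and 216.40 TPM in the same order of guides (log2 0.19, adjusted p = 0.00014).

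The other 3 subunits did not pass over both guides. MCM3 stood at 276.11 and 286.19 TPM in the controls, then at 288.27 and 284.85 TPM with sgMETTL1.3 and 267.21 and 270.57 TPM with sgMETTL1.6 (log2 -0.02). MCM5 stood at 128.80 and 130.22 TPM, then at 122.49 and 133.36 TPM and at 115.07 and 119.07 TPM in the same order (log2 -0.08, adjusted p = 0.081). MCM5 was lower with sgMETTL1.6 alone (limma log2 -0.14, adjusted p = 0.015). MCM7 stood at 289.58 and 300.32 TPM, then at 301.77 and 304.80 TPM and at 281.38 and 287.46 TPM (log2 -0.01). For MCM3 and MCM7 the groups overlapped, and for MCM5 1 library labelled sgMETTL1.3 was above the controls. MCM6 was the most abundant subunit transcript in both control libraries and the third in all 4 guide libraries, where MCM7 and MCM3 ranked above it; MCM5 was the lowest in all 6. The level of MCM6 relative to MCM4 was 1.68 and 1.72 in the controls, 1.08 and 1.06 in the libraries labelled sgMETTL1.3 and 1.12 and 1.08 in those labelled sgMETTL1.6. The summed level of the ring subunits was 1479.77 and 1508.69 TPM in the controls, 1432.69 and 1424.69 TPM in the libraries labelled sgMETTL1.3 and 1332.00 and 1341.54 TPM with sgMETTL1.6.

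**Figure D4:**
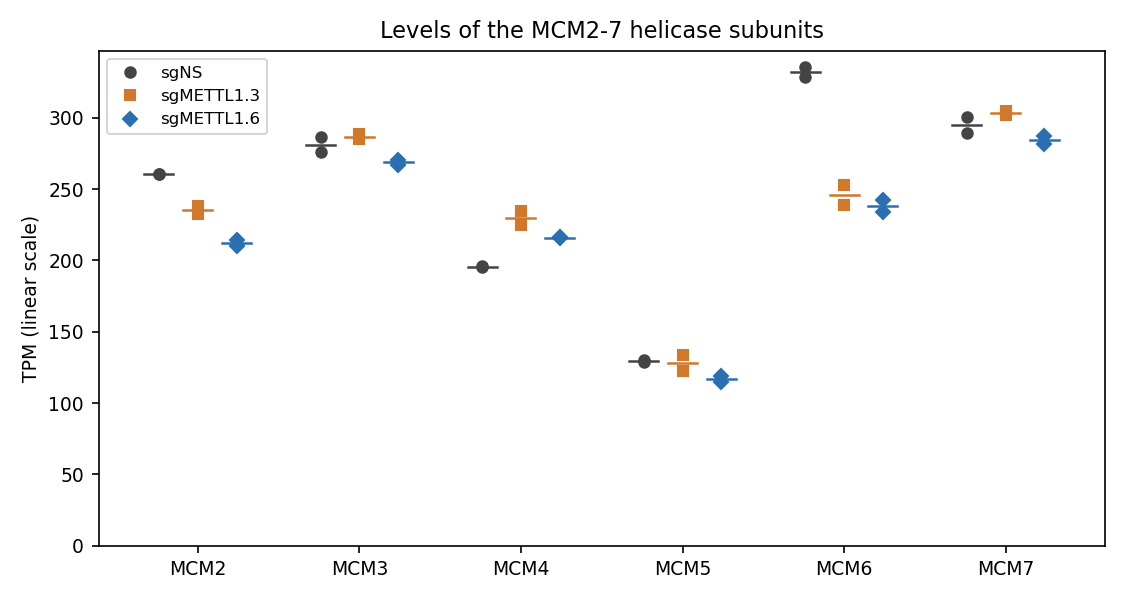
TPM on a linear scale of the MCM2, MCM3, MCM4, MCM5, MCM6 and MCM7 transcripts in each library (points) with the group mean (bars, n = 2). MCM6 drops from the highest level in the controls (328.80 and 335.94 TPM) to 233.75 to 253.13 TPM with the guides, MCM2 is lower and MCM4 higher.

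Among the factors that complete the helicase, GINS1 rose alone of the 4 GINS subunits tested. It stood at 28.37 and 27.55 TPM in the controls, 34.33 and 33.77 TPM in the libraries labelled sgMETTL1.3 and 35.39 and 34.97 TPM in those labelled sgMETTL1.6, with no overlap (log2 0.30 ± 0.042, SE, adjusted p = 4.5e-05). GINS2 (47.23 to 50.35 TPM), GINS3 (14.69 to 15.78 TPM) and GINS4 (28.75 to 31.82 TPM) had log2 differences between -0.02 and 0.05 and did not pass. CDC45, the partner that joins GINS on the ring, was slightly lower (38.0 ± 1.45 to 34.6 ± 1.53 and 34.1 ± 0.177 TPM, SD, n = 2; limma adjusted p = 0.014, and 0.16 without sgNS replicate 2), and MCM10, an initiation factor, did not pass (20.48 to 23.32 TPM, log2 -0.02).

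The clamp and its loader moved in opposite directions. PCNA, the sliding clamp and the most abundant of the replication transcripts, stood at 452.88 and 433.18 TPM in the controls, 492.33 and 483.62 TPM in the libraries labelled sgMETTL1.3 and 508.90 and 491.75 TPM in those labelled sgMETTL1.6 (log2 0.16, adjusted p = 0.00038). All guide libraries were above both controls. Of the 5 subunits of replication factor C, which opens PCNA and sets it on DNA, 4 fell and RFC5 did not pass (log2 -0.09, adjusted p = 0.070). In all 5 every guide library lay below both controls, as in 27.3% of all genes. RFC3 changed most, from 29.66 and 29.82 TPM to 25.90 and 25.87 TPM in the libraries labelled sgMETTL1.3 and 24.66 and 23.95 TPM in those labelled sgMETTL1.6 (log2 -0.24 ± 0.043, SE, adjusted p = 0.00041). RFC1, the large subunit, stood at 91.05 and 95.85 TPM in the controls, 87.97 and 83.77 TPM with sgMETTL1.3 and 81.80 and 79.66 TPM with sgMETTL1.6 (log2 -0.16). The small subunit RFC2 stood at 104.94 and 109.81 TPM, then at 95.59 and 96.43 TPM and at 93.99 and 94.71 TPM (log2 -0.17). RFC4 followed almost the same levels, from 104.12 and 108.81 TPM to 97.10 and 95.96 TPM and to 94.65 and 95.47 TPM (log2 -0.15). RFC5 stood at 49.87 and 48.70 TPM, then at 46.73 and 45.82 TPM and at 45.98 and 46.96 TPM. Without sgNS replicate 2 the adjusted p of RFC1 was 0.052.

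In DNA polymerase alpha-primase, which starts each strand, the primase and the accessory subunit went opposite ways. PRIM1 (chromosome 12, 56731596 to 56752373, minus strand), the catalytic primase subunit, stood at 102.89 and 99.32 TPM in the controls, 66.18 and 64.50 TPM in the libraries labelled sgMETTL1.3 and 68.76 and 66.17 TPM in those labelled sgMETTL1.6. It fell in every guide library, with a log2 change of -0.60 ± 0.037 (SE, adjusted p = 2.2e-08). POLA2 (chromosome 11, 65261762 to 65305589, plus strand), the accessory subunit, rose from 34.62 and 37.09 TPM to 48.52 and 48.39 TPM in the libraries labelled sgMETTL1.3 and to 41.42 and 42.61 TPM in those labelled sgMETTL1.6. That is a log2 change of 0.32 ± 0.043 (SE, adjusted p = 2.5e-05), again with no overlap.

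The catalytic polymerase subunit POLA1 and the large primase subunit PRIM2, which is no member of the 48, did not pass. POLA1 stood at 28.07 and 28.60 TPM in the controls, 27.71 and 27.27 TPM with sgMETTL1.3 and 27.18 and 26.26 TPM with sgMETTL1.6 (log2 -0.06). PRIM2 ranged from 42.49 to 45.96 TPM (log2 0.06). PRIM1 was the most abundant of the 4 subunit transcripts in every library, but its level relative to POLA2 went from 2.97 and 2.68 in the controls to 1.36 and 1.33 in the libraries labelled sgMETTL1.3 and 1.66 and 1.55 in those labelled sgMETTL1.6. PRIM1 lies 1.02 Mb from METTL1 on chromosome 12, and CDK2 lies 1.80 Mb from it. TIMELESS, no member of the 48, lies 1.32 Mb from METTL1 and did not pass over both guides (limma log2 -0.07, adjusted p = 0.16). It was lower with sgMETTL1.6 alone (limma log2 -0.13, adjusted p = 0.03) and did not pass with sgMETTL1.3 alone (log2 -0.01, adjusted p = 0.91). CDK4, the cyclin D kinase and no member of the 48, lies 12.5 kb from METTL1 and was lower (270.1 ± 6.97 TPM in the controls, 254.3 ± 3.56 and 222.2 ± 8.36 TPM with the guides, SD, n = 2; limma log2 -0.18, adjusted p = 0.00027). This CDK4 call was over both guides. With sgMETTL1.3 alone CDK4 did not pass (limma log2 -0.09, adjusted p = 0.06). It was lower with sgMETTL1.6 alone (limma log2 -0.28, adjusted p = 3.7e-05). The part of the position near METTL1 in the values of these genes was not tested.

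The single-strand binding complex replication protein A also split. RPA1, its large DNA-binding subunit, stood at 74.67 and 76.12 TPM in the controls, 96.70 and 96.07 TPM in the libraries labelled sgMETTL1.3 and 88.54 and 89.69 TPM in those labelled sgMETTL1.6 (log2 0.29, adjusted p = 7.3e-06). RPA2, the middle subunit, fell from 153.10 and 154.06 TPM to 147.31 and 140.33 TPM and to 137.75 and 135.19 TPM in the same order (log2 -0.13, adjusted p = 0.0035). RPA1 was thus above, and RPA2 below, both controls in every guide library. RPA3, the small subunit, stood at 29.08 and 28.53 TPM in the controls, 25.26 and 23.81 TPM in the libraries labelled sgMETTL1.3 and 34.50 and 29.81 TPM in those labelled sgMETTL1.6, below the controls with the first guide and above them with the second.

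Of the strand processing enzymes, the flap nuclease FEN1, which trims Okazaki fragments, rose from 133.04 and 131.88 TPM to 160.96 and 161.25 TPM in the libraries labelled sgMETTL1.3 and 154.45 and 161.84 TPM in those labelled sgMETTL1.6 (log2 0.27, adjusted p = 1.1e-05). The ligase LIG1, which seals them, did not pass (44.80 to 48.02 TPM, log2 0.01). The catalytic subunits of the leading and lagging strand polymerases, POLE (40.37 to 45.93 TPM, log2 0.02) and POLD1 (56.56 to 67.26 TPM, log2 -0.08), did not pass either. Ribonucleotide reductase, which makes deoxyribonucleotides, showed the smallest called changes: the large subunit RRM1 was higher (162.64 and 166.05 TPM in the controls, 185.31 and 172.42 TPM with sgMETTL1.3 and 175.22 and 167.28 TPM with sgMETTL1.6, log2 0.09, adjusted p = 0.047) and the small subunit RRM2 lower (179.05 to 198.99 TPM, log2 -0.09, adjusted p = 0.025). Both calls were lost with each control library left out, and in 8 and 5 of the 14 alternative settings in all (adjusted p up to 0.24 for RRM1 and up to 0.19 for RRM2 over all alternatives).

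A further list of 78 symbols for G1/S and replication genes had 73 in the table, all tested. Over both guides 28 were higher, 17 were lower and 28 did not pass, a called share of 61.6% next to the 59.4% of all genes. Without sgNS replicate 1 the higher genes numbered 17, while over all genes the higher ones went from 3556 to 2645 and the called share to 45.4%. Next to 32.6% higher and 26.8% lower over all genes, polymerase accessory and maturation genes had 12 higher and 1 lower of 17, licensing and firing factors 6 and 2 of 18, nucleosome assembly and nucleotide supply genes 5 and 3 of 14, and kinases, E2F partners and inhibitors 5 and 11 of 24. The first of these groups had 9 higher and 1 lower with sgMETTL1.3 alone and 5 higher and 1 lower with sgMETTL1.6 alone. Licensing and firing factors had 7 higher and 1 lower, and 2 higher and 4 lower, in the same order. Over all genes 34.3% were higher and 24.2% lower with sgMETTL1.3, and 25.7% higher and 25.3% lower with sgMETTL1.6.

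The deepest fall of that list was CDKN1A, the CDK inhibitor p21. It stood at 22.65 and 24.84 TPM in the controls, 14.63 and 15.62 TPM in the libraries labelled sgMETTL1.3 and 13.55 and 13.15 TPM in those labelled sgMETTL1.6, with no overlap (log2 -0.70 ± 0.055, SE, adjusted p = 2.6e-07). CDKN2D, an inhibitor of CDK4 and CDK6, was lower too (17.5 ± 1.81 to 13.2 ± 0.0212 and 13.9 ± 0.170 TPM, SD, n = 2; limma log2 -0.34). The E2F partner TFDP2 fell by 0.31, the repressor E2F7 by 0.30, the pocket protein RBL1 by 0.27 and the origin subunit ORC3 by 0.26 on the log2 scale (limma, adjusted p from 0.00011 to 0.0036).

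The highest rise was SKP2, the ubiquitin ligase subunit that targets the CDK inhibitor p27. It stood at 32.95 and 32.57 TPM in the controls, 45.17 and 43.53 TPM in the libraries labelled sgMETTL1.3 and 49.10 and 48.39 TPM in those labelled sgMETTL1.6 (log2 0.49 ± 0.040, SE, adjusted p = 3.3e-07). E2F4, a repressor E2F that works with the pocket proteins, rose from 68.1 ± 4.07 to 98.5 ± 3.38 and 87.9 ± 0.262 TPM (SD, n = 2; limma log2 0.45, adjusted p = 1.0e-06). The polymerase epsilon subunit POLE3 rose by 0.38 and DDB1, part of the ligase that destroys CDT1 in S phase, by 0.35. MCM8, a helicase related to the ring subunits, rose by 0.35 and the checkpoint adaptor CLSPN by 0.33.

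**Figure D5:**
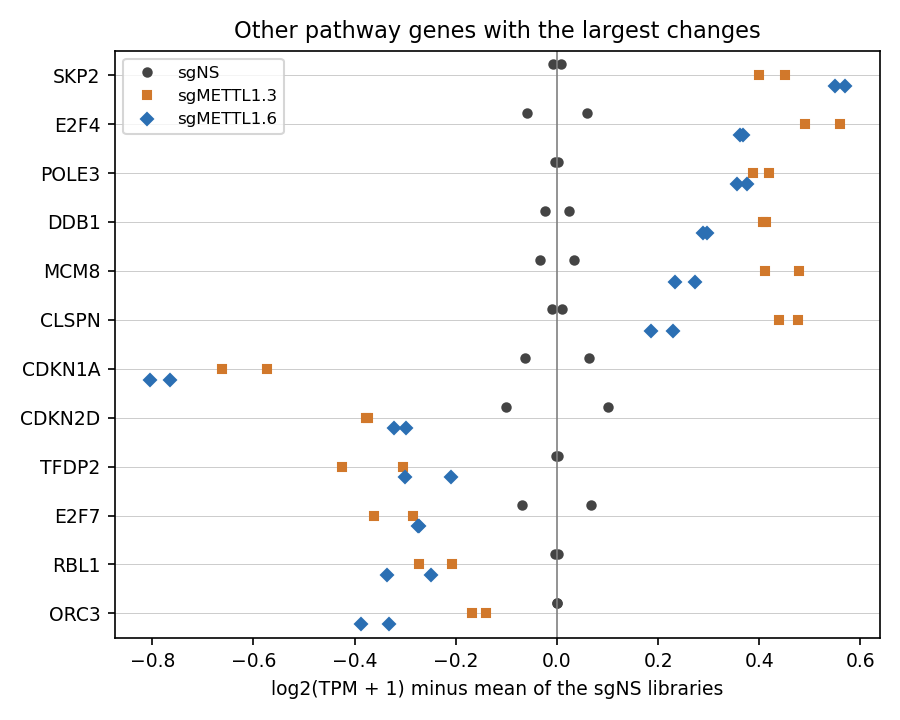
Change in each library, as log2(TPM + 1) minus the mean of the sgNS libraries (x axis), of the 6 other pathway genes with the highest rises and the 6 with the deepest falls (y axis). Each point is 1 library; SKP2 and E2F4 lie farthest to the right and CDKN1A to the left.

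The libraries of the METTL1 guides were also compared with each other. Of the 46 genes, 3 were higher and 3 lower in those labelled sgMETTL1.6 than in those labelled sgMETTL1.3, or 13.0%, next to 23.0% of all genes (7.23% higher and 15.8% lower). The split of all genes was 789 higher and 1721 lower, and 1102 and 809 with median-ratio scaling, and the replication genes then had 4 higher and 2 lower. RPA3 had the largest difference (log2 0.37, adjusted p = 0.002). Against control, RPA3 had a log2 change of -0.22 with sgMETTL1.3 (limma, adjusted p = 0.01) and of 0.15 with sgMETTL1.6 (adjusted p = 0.072). CCNE2 and CCND3 were higher by 0.18 and 0.16, and POLA2, ORC1 and MCM2 lower by log2 differences of -0.20, -0.16 and -0.15. Left-out libraries moved the total to between 1 and 6: it was 3 without sgMETTL1.3 replicate 1 or without sgMETTL1.6 replicate 1, and 1 without sgMETTL1.3 replicate 2. Over all genes the called share was then 11.6%, 13.2% and 11.1%. With the replicate number as a block it was 15 of 46, next to 33.1% of all genes, so the gap to the share of all genes was not seen in that fit. RPA3 was the 1 gene of the 6 that passed in all 14 alternative settings.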

How the data were processed

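Values came from 1 table of TPM for 18806 gene symbols in 6 libraries. The authors deposited TPM that sum alike in every library. RSEM 1.2.31 and the build GRCh38 are named per the submitters' processing notes; aligner and annotation: not given in the sources used here. Reads that fit several transcripts are divided by estimation in RSEM, so genes with pseudogene copies, such as PCNA, or with overlapping transcripts, such as POLA2, are less certain. Column names matched the 6 samples, leaving 0 unmapped. TPM keeps no depth.

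The 10911 genes averaging 1 TPM or more were fitted on the log2(TPM + 1) scale by limma 3.58.1 (R 4.3.3). A single model held all 3 groups, with empirical Bayes, a mean-variance trend, 3 residual degrees of freedom and 9.84 from the prior. Fold changes on this scale understate changes of low genes. P-values were Benjamini-Hochberg adjusted over all tested genes. The fit was checked on simulated data. The members and lists were chosen with earlier results of these data known. Values in every library are given for members past the test with an absolute log2 change of at least 0.3. They are also given for the largest change of each role group, differences between guides of at least 0.3 and subunits of the same complex. RB1, CCND3, GINS1, ORC1, FEN1, PCNA, CDK4 and TIMELESS were added after their values were seen. Of the other pathway genes the 6 highest rises and 6 deepest falls are named. Gene positions are from GENCODE 29 and promoters from RefSeq (GRCh38.p14). Alternatives were other pseudocounts, filters and scalings, no trend, the replicate number as a block and leaving out each library; a group left with 1 library is assumed to vary like the others.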

Additional observations from a re-analysis of the deposited data

Results flagged for a closer look

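The METTL1 guides differed from each other in their change against the shared control for 6 of the 46 tested replication genes (13%, next to 23.0% of all genes). The test was limma on sgMETTL1.6 against sgMETTL1.3. With no variance trend CCND3, CCNE2, ORC1 and MCM2 did not pass, and with no filter on low values CCND3, CCNE2, ORC1 and POLA2 did not. Under quantile normalization ORC1 and POLA2 did not pass, and ORC1 also failed with median-ratio scaling. The log2 difference was 0.37 for RPA3 (adjusted p = 0.002), 0.18 for CCNE2 (adjusted p = 0.028), 0.16 for CCND3 (0.155 unrounded, adjusted p = 0.027), -0.20 for POLA2 (adjusted p = 0.012), -0.16 for ORC1 (adjusted p = 0.035) and -0.15 for MCM2 (adjusted p = 0.0074).

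Of the 73 other pathway genes, 15 passed the same test, 5 higher and 10 lower (20.5%, next to 23.0% of all genes). SAMHD1, which breaks down deoxyribonucleotides, had the largest difference (log2 -0.45, adjusted p = 6.3e-06): it stood at 131.54 and 135.97 TPM in the controls, 151.20 and 146.05 TPM in the libraries labelled sgMETTL1.3 and 108.50 and 108.37 TPM in those labelled sgMETTL1.6, above the controls with the first guide and below them with the second. CDKN1B, the CDK inhibitor p27, differed by 0.30 (adjusted p = 9e-04) and stood at 45.13 and 43.63 TPM in the controls, 33.74 and 33.17 TPM in the libraries labelled sgMETTL1.3 and 41.16 and 41.72 TPM in those labelled sgMETTL1.6. SAMHD1 and CDKN1B were chosen after their values were seen. The log2 difference was -0.25 for CLSPN (adjusted p = 0.0031), -0.21 for ORC3 (-0.205 unrounded, adjusted p = 0.0082), -0.19 for MCM8 (adjusted p = 0.014), -0.16 for E2F4 (adjusted p = 0.028) and -0.12 for DDB1 (adjusted p = 0.021). It was -0.27 for MCM9 (adjusted p = 0.0066), -0.19 for CDK4 (adjusted p = 0.0032), -0.14 for DONSON (adjusted p = 0.044) and -0.13 for DNMT1 (adjusted p = 0.017). It was 0.26 for RNASEH2B (adjusted p = 9e-04), 0.17 for CKS1B (adjusted p = 0.003), 0.14 for UHRF1 (adjusted p = 0.019) and 0.11 for CDKN2A (adjusted p = 0.042). E2F4 and DDB1 did not pass this test with median-ratio scaling or with no variance trend. E2F4 and MCM8 did not pass it with quantile normalization or with no filter on low values.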

How the results depend on the processing

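Of the 26 replication genes called over both guides, 19 passed in each of the 14 alternatives in which they were tested (RB1 was under the filter of 5 TPM), 7 failed in at least 1, and 7 uncalled genes passed in at least 1; 0 calls reversed. CDT1, PRIM1, MCM6, E2F2 and POLA2 passed throughout, as did the 12 named pathway genes, except that TFDP2 was not tested under the 5 TPM filter. With no filter on low values the lower genes with sgMETTL1.3 numbered 10 (38.6% of all genes called). Between the guides, the called genes numbered 2 (1 higher, 1 lower) with no filter and likewise 2 (1 and 1) with no variance trend; the lower ones numbered 5 with a mean of at least 5 TPM and 1 with quantile normalization. The called share of all genes in these settings was 6.53%, 12.9%, 27.9% and 16.3%. With a library left out, the lower genes ranged from 9 to 16 with sgMETTL1.3 and from 9 to 15 with sgMETTL1.6, the higher other pathway genes from 17 to 28, and the genes called between the guides from 1 to 6 (1 to 3 higher, 0 to 4 lower; limma, with 10 lower at an unadjusted p under 0.05 where the count was 0). In these fits with a library left out, the called share of all tested genes moved as well. The ranges alone therefore do not show an instability particular to the replication genes. The causes were not tested. The labels do not say whether equal replicate numbers pair the libraries. Over genes, the correlation of replicate differences was -0.005 for sgNS and sgMETTL1.3, 0.207 for sgNS and sgMETTL1.6 and 0.145 for the METTL1 guides. With the replicate block 15 genes were called between the guides, 11 of them lower, next to 33.1% of all genes called. Depth is unknown, so the limit it sets on low genes such as CCND1 and CCND2 cannot be given.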
